A study of Mus musculus with 63 samples.

Results

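The BMP and TGF-beta response genes described here are 9 genes chosen by name from the 54752 genes of the count tables: Id1, Id2, Id3, Smad6, Smad7, Skil, Bambi, Bmpr1a and Tgfbr2. They were followed by RNA-Seq in organoids grown from mouse intestine and in epithelial cells isolated from it (IECs) after the Mediator kinases CDK8 and CDK19 were deleted. The data comprise 57 libraries in 19 groups of 3. All mice and organoids were on the C57BL/6 strain, and the Villin promoter drives the inducible CreERT2 in the intestinal epithelium, so that only epithelial Cdk8 is deleted while Cdk19-/- is constitutive.

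Organoids of 5 genotypes were collected at day 7 after 24 h in 100 nM 4-OHT, with 1 line for each genotype. VillinCreERT2 and C57BL/6 organoids served as controls for CDK8iIEC-KO, Cdk8fl/fl/Cdk19-/- and CDK8iIEC-KO/Cdk19-/- organoids. A time course used a VillinCreERT2/Cdk8fl/fl/Cdk19-/- line whose number in the labels differs from that of the CDK8iIEC-KO/Cdk19-/- organoids above. This line was treated with 100 nM 4-OHT or 0.001% EtOH and collected at days 3, 5, 7 and 10. Its EtOH controls therefore carry Cdk19-/- and an unrecombined Cdk8fl/fl, and the comparison adds loss of CDK8 to cells without CDK19. Exposure to 4-OHT and active CreERT2 also differ between 4-OHT and EtOH, here, in Wnt3-CM and with D173A, and cannot be told apart from loss of CDK8, since no VillinCreERT2 organoids with EtOH were analysed here. The same line was grown in Wnt3-conditioned medium (Wnt3-CM) and collected at day 10, and organoids with a kinase-dead CDK19 (CDK8iIEC-KO/Cdk19 D173A/-) were compared with their EtOH control at day 7. Organoid medium held 10% Noggin-conditioned medium, 5% R-Spondin-conditioned medium and EGF. IECs came from VillinCreERT2 and CDK8iIEC-KO/Cdk19-/- mice 14 days after 5 daily injections of 80 mg/kg tamoxifen. Each IEC library carries its own number in the labels, whereas organoid libraries of a group share the number of their line in labels or column names. The labels do not say whether IEC replicates were separate mice or organoid replicates separate cultures. P-values thus measure the spread between these samples, which may be technical. For organoids this spread lies within a line and is not spread between mice.

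BMP ligands bind type II receptors together with the type I receptor BMPR1A, which phosphorylates SMAD1 and SMAD5, whereas TGF-beta binds TGFBR2, which recruits TGFBR1 and leads to phosphorylation of SMAD2 and SMAD3. In the nucleus, CDK8 and CDK19 can phosphorylate the linker of the activated SMADs, a mark that has been tied both to their activity and to their turnover by ubiquitin ligases. In the intestine, BMP signaling is high toward the villus and restrained at the crypt base by antagonists such as Noggin, and TGF-beta limits epithelial growth. The ID proteins, which sequester bHLH transcription factors, and the inhibitory SMAD6 are classic BMP targets. The inhibitory SMAD7 and the corepressor SnoN, encoded by Skil, are classic TGF-beta targets, although SMAD7 also responds to BMP. BAMBI is a receptor-like inhibitor without a kinase domain.

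The genes lie on chromosome 2 (Id1), 12 (Id2), 4 (Id3), 9 (Smad6 and Tgfbr2), 18 (Smad7 and Bambi), 3 (Skil) and 14 (Bmpr1a) of GRCm38. In GENCODE vM21, 970 bases of Bmpr1a overlap the antisense gene Gm17110, and the strandedness of the counting is not given in the sources used here, so reads there cannot be told apart. RefSeq promoter windows were matched for 5 members, Id2, Id3, Smad6, Bmpr1a and Tgfbr2. In the 250 bases before the start site of each, the BMP-type SMAD motif GGCGCC and the SMAD3/SMAD4-type motif CAGACA were searched on both strands. GGCGCC occurred once in Id2 and once in Bmpr1a and in 9.59% of 32851 windows of the same length, while CAGACA occurred in none of the 5 windows and in 17.1% of all windows. Both matches are shown 5′ to 3′ with the motif in capitals, at chr12:25096306-25096335 and chr14:34502727-34502756 on the minus strand, where they begin 231 and 198 bases before the start.
Id2: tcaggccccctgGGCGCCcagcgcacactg
Bmpr1a: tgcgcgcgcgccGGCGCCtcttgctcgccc
The windows of Smad6 (chr9:64022060-64022309, minus strand), the member with the largest change in the 10 knockout comparisons (in D173A organoids), and of Tgfbr2 (chr9:116175364-116175613, minus strand), the receptor that changed most, overlap no exon of GENCODE vM21. They hold neither motif and are shown for reference. Of the other windows, 161 bases of Id2, 141 of Bmpr1a and all 250 of Id3 lie within 1 annotated exon.
Smad6: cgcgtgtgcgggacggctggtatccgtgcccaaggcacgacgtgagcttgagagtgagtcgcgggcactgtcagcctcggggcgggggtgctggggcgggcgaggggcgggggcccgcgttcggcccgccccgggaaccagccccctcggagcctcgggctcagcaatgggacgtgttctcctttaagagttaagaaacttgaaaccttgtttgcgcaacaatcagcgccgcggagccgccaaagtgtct
Tgfbr2: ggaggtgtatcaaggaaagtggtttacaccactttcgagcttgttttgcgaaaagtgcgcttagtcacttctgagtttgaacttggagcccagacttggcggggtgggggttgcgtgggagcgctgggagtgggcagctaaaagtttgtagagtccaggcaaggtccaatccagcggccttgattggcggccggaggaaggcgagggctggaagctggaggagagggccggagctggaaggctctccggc

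Totals ran from 15485959 to 32909565 counts per library, with a median of 19374952. Values are given as CPM, the counts scaled to library size with TMM factors, and as RPKM, which divides by exonic length, where levels of different genes are compared. A gene was called changed in edgeR's quasi-likelihood test where its fold passed 1.5 and its adjusted p (Benjamini-Hochberg, over all genes tested) was under 0.05. Log2 changes are log2 ratios of the fitted levels, with their standard errors (SE). The share of all tested genes that passed the same rule is given as the background. Whole-gene counts do not check the deletions, since a transcript without a deleted exon would still count. Whether such transcripts make up these levels was not tested. Cdk8 was at 71.9 to 80.8 CPM in VillinCreERT2 and 78.0 to 83.1 in CDK8iIEC-KO organoids. Its means were 48.3 in VillinCreERT2 and 50.5 in CDK8iIEC-KO/Cdk19-/- IECs, and 55.7 with EtOH and with 4-OHT at day 10 of the time course. Cdk19 was at 28.7 to 34.5 in C57BL/6 and 24.7 to 26.0 in Cdk8fl/fl/Cdk19-/- organoids. Its means were 28.1 in VillinCreERT2 and 27.7 in CDK8iIEC-KO/Cdk19-/- organoids, and 38.1 to 58.4 over the time course groups. In bulk RNA, fewer cells that express a gene and less RNA per cell cannot be told apart. Epithelial markers (6 genes, Epcam and Vil1 among them) summed to 4796 to 9253 CPM in the 51 organoid libraries, and the endothelial markers to no more than 2.22 CPM.

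The widest contrast among the members was between IECs and organoids of the same VillinCreERT2 genotype. Of the 9 members, 7 were called higher in IECs and Tgfbr2 lower, where 26.2% of the 14679 genes tested were called higher, 24.2% lower and 50.4% in all. All 4 BMP targets and both TGF-beta targets were higher, with median log2 changes of 3.02 and 2.31, against -0.01 over all genes. Both receptors went the other way, with a median of -1.18. Mouse tissue, culture medium, time after treatment and count table all differ between these groups and cannot be told apart.

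Id3, which like Id1 is an early BMP target, stood at 82.4, 90.6 and 79.1 CPM in the 3 IEC libraries and at 9.28, 8.47 and 6.07 CPM in the 3 organoid libraries. Its log2 change was 3.40 (SE 0.14, adjusted p = 2.2e-07), or 10.6-fold. Smad6, the inhibitory SMAD of the BMP branch, rose most, from 2.79 ± 0.52 CPM (SD, n = 3) in organoids to 33.3 ± 3.77 in IECs, which is 11.9-fold. Id1 was 6.27-fold higher (14.5 ± 1.17 and 90.8 ± 2.09 CPM) and Id2 1.82-fold (17.9 ± 4.49 and 32.7 ± 6.38 CPM). Id2 was the least raised of the BMP targets (adjusted p = 0.0134), and with no filter on low counts its call was lost (0.82, adjusted p = 0.0743).

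Smad7 was 6.78-fold higher in IECs, at 69.6 ± 1.68 CPM against 10.3 ± 0.86 CPM, and Skil 3.63-fold, at 105 ± 6.76 against 29.0 ± 1.49 CPM. The rise of Smad7 lay between those of Id1 and Id3. Bambi was low in both, at 3.96 ± 1.04 and 2.09 ± 0.54 CPM (log2 change of 0.92, adjusted p = 0.0105). Its call was lost without VillinCreERT2 organoid replicate 1 or 2, at log2 changes of 0.81 and 0.79. Tgfbr2, the ligand-binding TGF-beta receptor, fell from 124.0, 130.4 and 134.6 CPM in organoids to 28.3, 47.0 and 27.3 CPM in IECs, a log2 change of -1.92 (SE 0.22, adjusted p = 0.000585). Bmpr1a fell by less than the fold cutoff, at -0.43 on the log2 scale (adjusted p = 4.44e-05, which 74.3% of all genes passed at 0.05).

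Per length, the order of the members changed with the source. In VillinCreERT2 organoids, Bmpr1a (26.3 ± 0.32 RPKM), Tgfbr2 (15.8 ± 0.66) and Id1 (12.5 ± 1.01) led, and Smad6 (0.87 ± 0.16) and Bambi (0.41 ± 0.11) were lowest. In IECs, Id1 (78.3 ± 1.80 RPKM) and Id3 (46.9 ± 3.31) led, and Tgfbr2 (4.18 ± 1.35) stood above Bambi alone. Id2, Skil and Smad6 in IECs, between 10.4 and 13.4 RPKM, did not differ beyond their SDs.

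**Figure D1:**
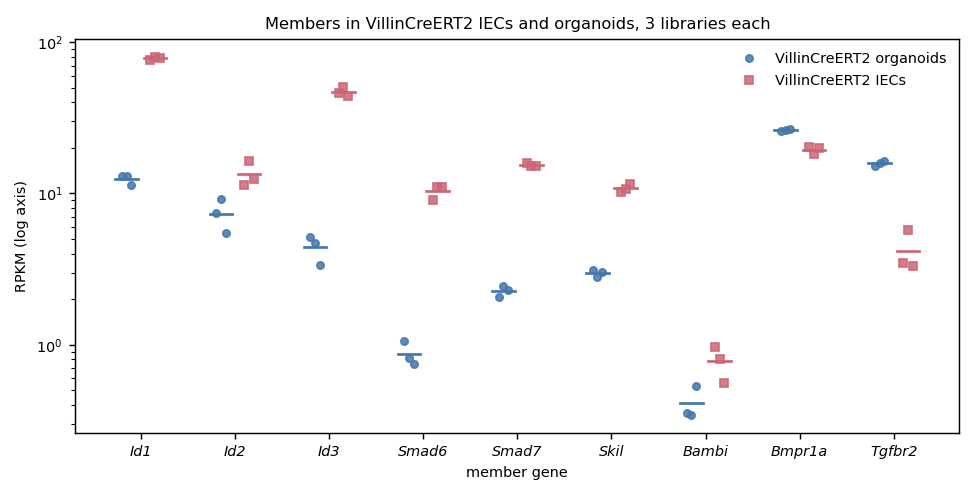
RPKM of the 9 members on a log axis in the 3 VillinCreERT2 organoid libraries (circles) and the 3 VillinCreERT2 IEC libraries (squares), with lines at the means. Targets of both branches lie higher in IECs, and Bmpr1a and Tgfbr2 lie lower.

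The IEC libraries also held more RNA of other cells. The 6 immune markers summed to 40.5 to 227 CPM in VillinCreERT2 IECs and 1.38 to 1.82 CPM in the organoids, and the 6 mesenchymal markers to 5.93 to 790 and 0.45 to 0.77 CPM. The 5 endothelial markers summed to 1.59 to 4.08 CPM in IECs, with 1 of them at 0 in each library, and to 0.57 to 0.85 CPM in organoids. The mesenchymal sum of 790 CPM came from VillinCreERT2 IEC replicate 2. Without this library the same 8 members were called, with log2 changes of 2.64 for Id1, 3.35 for Id3 and 3.53 for Smad6. Of 37 other genes of the pathway that were tested, 13 were higher and 6 lower, where 26.2% and 24.2% of all genes were. Tgfbi, a matrix protein induced by TGF-beta, was 82.9-fold higher, at 499 ± 76.1 CPM against 6.01 ± 1.21 CPM. Bmp1, a procollagen proteinase in spite of its name, was 32.5-fold higher, while the corepressor Tgif1 fell by 0.83 on the log2 scale.

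With loss of the Mediator kinases, the members changed far less. In the 10 comparisons of a knockout with its control, 85 tests of a member were possible and 11 were called, 5 higher and 6 lower. The background over all genes ran from 1.5% to 19.4% in these comparisons. BMP targets were called in 6 of 40 tests (2 higher and 4 lower), TGF-beta targets in 2 of 20 (both Skil, both higher), Bambi in 2 of 5 and receptors in 1 of 20. Id1, Smad7 and Bmpr1a were called in none of the 10. Several of these comparisons share a line or a control, so they are not independent.

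The median log2 change of the 4 BMP targets was below that of the 2 TGF-beta targets in all 6 comparisons of 4-OHT with EtOH. It was -0.24 against 0.31 at day 3, -0.38 against 0.18 at day 5, -0.17 against 0.17 at day 7, -0.49 against 0.28 at day 10, -0.24 against -0.19 in Wnt3-CM and -0.18 against 0.34 with kinase-dead CDK19. In the comparisons between organoid lines it was -0.03 against -0.19 for CDK8iIEC-KO, 0.09 against 0.36 for Cdk8fl/fl/Cdk19-/- and -0.05 against -0.28 for CDK8iIEC-KO/Cdk19-/-, and in IECs 0.40 against -0.10. Over all genes the median lay between -0.02 and 0.02. Of the 6 other BMP targets listed, Atoh8 alone was tested in the time course and in Wnt3-CM. In Wnt3-CM it stood above the median of the other TGF-beta targets (-0.43 against -0.74 for 9 genes), and on all 4 days of the time course below it. Medians of these other lists were 0.30 against -0.12 for CDK8iIEC-KO, 0.24 against 0.09 for Cdk8fl/fl/Cdk19-/- and -1.02 against -0.25 for CDK8iIEC-KO/Cdk19-/- organoids. In IECs they were 0.33 against -0.02, and with kinase-dead CDK19 2.86 against -0.10. The value of 2.86 rests on Id4, which passed the count filter only through the 4-OHT libraries, and Atoh8 was at -0.75 there. The medians of the members rest on 4 and 2 genes, most of which were not called, and describe the lists only.

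**Figure D2:**
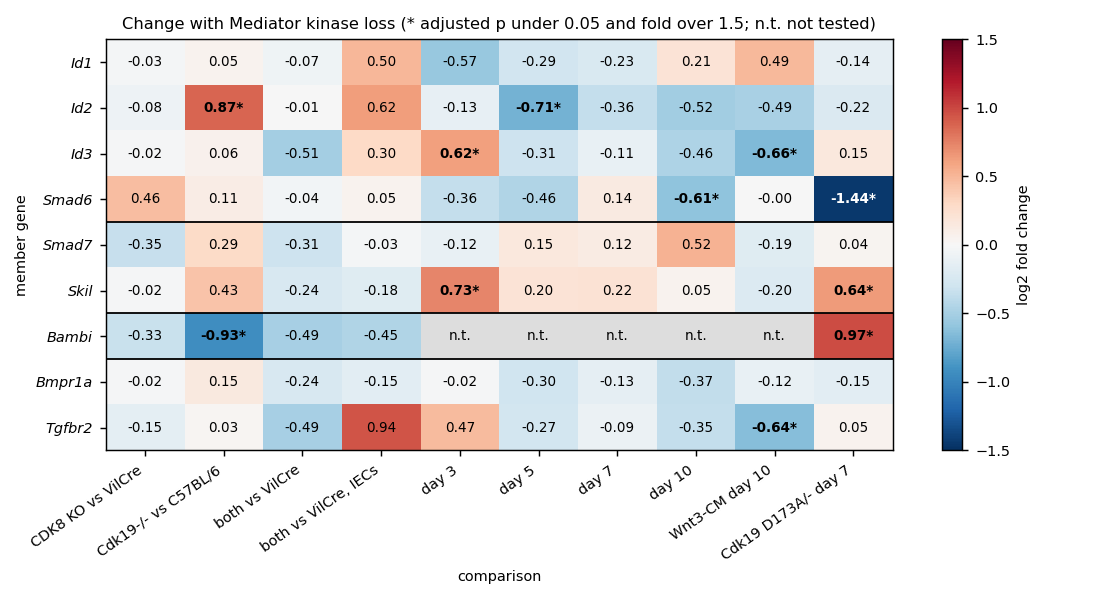
Log2 fold changes of the 9 members in the 10 comparisons of a knockout with its control, with called changes starred and bold. Horizontal lines part BMP targets, TGF-beta targets, Bambi and the receptors. The 11 calls are spread over 6 genes, and Skil (higher) and Smad6 (lower) are the members called more than once in 1 direction.

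In the organoid lines at day 7, no member was called in CDK8iIEC-KO or in CDK8iIEC-KO/Cdk19-/- organoids, where the background was 7.23% and 19.4% (30.3% and 52.9% by the adjusted p alone). DESeq2 called 0 in each too. Both were compared with the same VillinCreERT2 libraries. Among the BMP targets, Id1 was at 16.8, 16.7 and 16.6 CPM in CDK8iIEC-KO and 15.8, 17.6 and 15.4 CPM in CDK8iIEC-KO/Cdk19-/- organoids, next to 17.8, 17.9 and 15.4 CPM in VillinCreERT2 organoids. The 3 groups overlapped. Id3 stood at 5.79, 7.56 and 6.48 CPM in CDK8iIEC-KO/Cdk19-/- and 10.96, 9.98 and 7.15 CPM in VillinCreERT2 organoids, which overlapped in 1 library, and its log2 change of -0.51 (SE 0.14, adjusted p = 0.0045) was under the fold cutoff. Without VillinCreERT2 replicate 3 or CDK8iIEC-KO/Cdk19-/- replicate 2 it was called, at -0.66 and -0.61.

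Tgfbr2 in CDK8iIEC-KO/Cdk19-/- organoids was at 114, 110 and 102 CPM against 146, 154 and 159 CPM (log2 change of -0.49, SE 0.06, adjusted p = 1.5e-07), without overlap and under the fold cutoff. Smad7, Skil and Bmpr1a also passed the adjusted p alone there, at log2 changes of -0.31, -0.24 and -0.24. In CDK8iIEC-KO organoids, Smad6 (0.46, adjusted p = 0.0426) and Smad7 (-0.35, adjusted p = 0.0158) passed the adjusted p alone. Smad6 was called without VillinCreERT2 replicate 1, at 0.62, and Bambi of CDK8iIEC-KO/Cdk19-/- organoids was called without VillinCreERT2 replicate 1 or 2 or CDK8iIEC-KO/Cdk19-/- replicate 2, at -0.59, -0.61 and -0.69.

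In Cdk8fl/fl/Cdk19-/- organoids, Id2 was higher and Bambi lower than in C57BL/6 organoids, 2 of 9 members against a background of 5.25%. Id2, which restrains differentiation by binding bHLH factors, was at 28.9, 30.0 and 29.0 CPM in Cdk8fl/fl/Cdk19-/- and 15.4, 17.1 and 15.6 CPM in C57BL/6 organoids. The groups did not overlap, and the log2 change was 0.87 (SE 0.14, adjusted p = 0.000398). Bambi was at 2.03, 2.39 and 2.68 CPM against 4.32, 4.43 and 4.83 CPM, a log2 change of -0.93 (SE 0.19, adjusted p = 0.000869). Skil rose by 0.43 on the log2 scale, which passed the adjusted p alone (0.000343; 15.5% of all genes did).

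The control lines differed from each other too. C57BL/6 organoids had lower Smad7 (-0.74) and Skil (-0.83) and higher Bambi (0.88) than VillinCreERT2 organoids on the log2 scale, with adjusted p of 5.34e-06, 7.9e-10 and 0.000162 and a background of 26.4%. Skil was at 19.9, 18.6 and 19.3 CPM in C57BL/6 and 35.7, 32.2 and 34.6 CPM in VillinCreERT2 organoids. Against the mean of both control lines, Bambi was lower in CDK8iIEC-KO (-0.77) and CDK8iIEC-KO/Cdk19-/- organoids (-0.93) and called in both, Smad6 was called higher in CDK8iIEC-KO organoids (0.66), and Bambi of Cdk8fl/fl/Cdk19-/- organoids lost its call (-0.49). Each genotype is 1 line in these groups, so genotype and line cannot be told apart. Column names and depth also part the lines. VillinCreERT2 and CDK8iIEC-KO share a name format, at 20424462 to 21449826 counts per library. C57BL/6, Cdk8fl/fl/Cdk19-/- and CDK8iIEC-KO/Cdk19-/- share another, at 15485959 to 18440256 counts. Comparisons of CDK8iIEC-KO/Cdk19-/- or C57BL/6 with VillinCreERT2 organoids cross this split, which cannot be told apart from genotype.

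**Figure D3:**
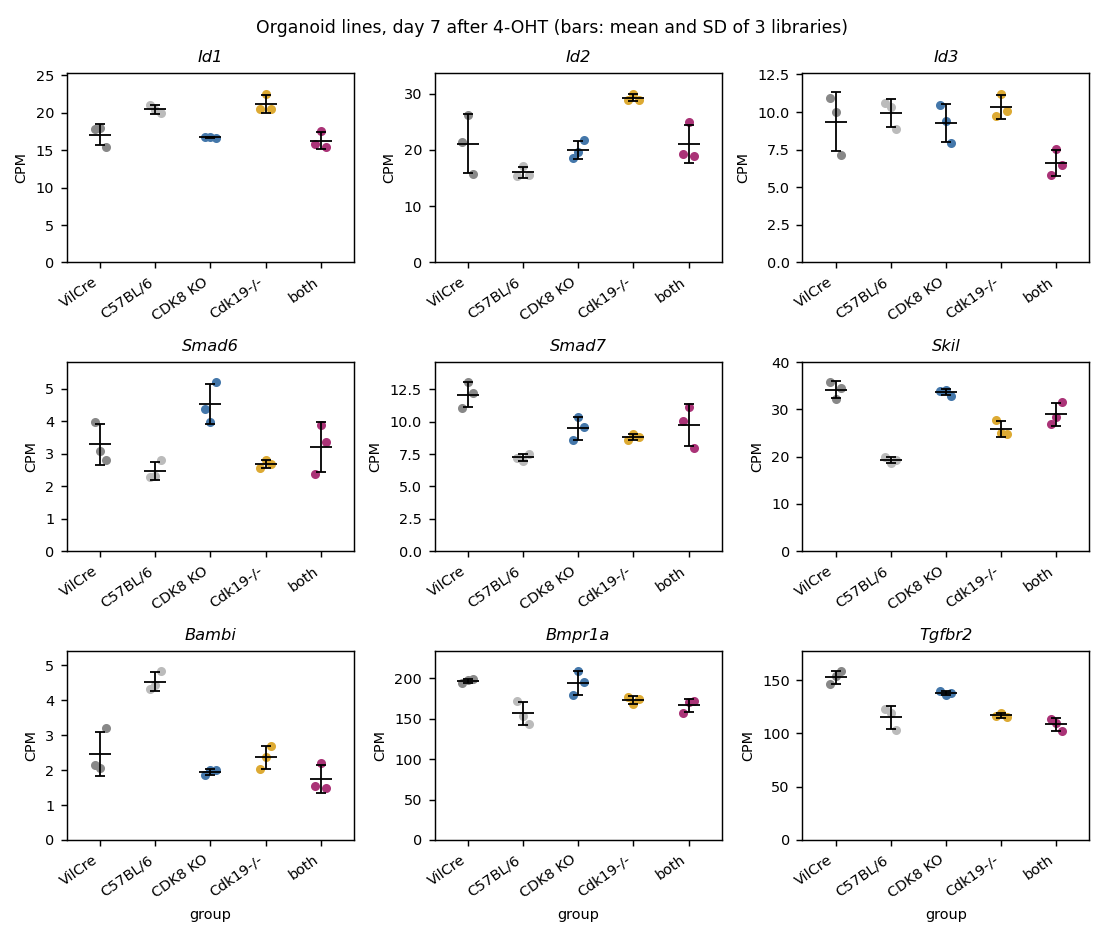
CPM of the 9 members in the 5 organoid groups at day 7 after 4-OHT, with each library as a point and bars for the mean and SD of 3 libraries. Id2 stands apart in Cdk8fl/fl/Cdk19-/- organoids, and Smad7, Skil and Bambi differ between the control lines VillinCreERT2 and C57BL/6.

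The change in CDK8iIEC-KO/Cdk19-/- organoids minus the sum of both single knockouts was called for 3 members, with a background of 19.6%. It was -0.80 for Id2 (SE 0.20, adjusted p = 0.00413), -0.64 for Skil (0.11, adjusted p = 2.86e-05) and 0.77 for Bambi (0.29, adjusted p = 0.0328). VillinCreERT2 cancels in this difference, so that it rests on C57BL/6 organoids as the control line, and its libraries are shared with the comparisons above. It also crosses the split in column names, with CDK8iIEC-KO on the other side from the rest. Bambi lost its call with DESeq2 or no filter (adjusted p = 0.0612 in both) and without CDK8iIEC-KO replicate 1 (0.73), Cdk8fl/fl/Cdk19-/- replicate 1 (0.68), C57BL/6 replicate 3 (0.73) or CDK8iIEC-KO/Cdk19-/- replicate 2 (0.57). Skil fell under the fold cutoff without Cdk8fl/fl/Cdk19-/- replicate 1 (-0.58). Id3 was called without CDK8iIEC-KO replicate 3 (-0.65), C57BL/6 replicate 1 (-0.60) or CDK8iIEC-KO/Cdk19-/- replicate 2 (-0.66), and Smad6 without the last of these (-0.77). Of 34 other genes of the pathway, 11 were called.

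Other genes of the pathway were called in 4, 3 and 5 of 34 tests for CDK8iIEC-KO, Cdk8fl/fl/Cdk19-/- and CDK8iIEC-KO/Cdk19-/- organoids. The background was 7.23%, 5.25% and 19.4%. Pmepa1, a TGF-beta target and feedback inhibitor, was lower in CDK8iIEC-KO/Cdk19-/- organoids, at 8.07 ± 0.74 against 16.3 ± 0.57 CPM (-1.02). Of the BMP branch in these organoids, Smad5 fell by 0.59 and the BMP target Id4 fell by 1.01 on the log2 scale. In CDK8iIEC-KO organoids Bmp7 was higher (0.60), and Tgfbi (-1.08) and the cell cycle inhibitor Cdkn1a (-0.60) were lower. In Cdk8fl/fl/Cdk19-/- organoids the ligand Bmp2 was higher (0.74). In C57BL/6 against VillinCreERT2 organoids, 10 of 34 were called (background 26.4%), among them Pmepa1 (-1.00), Tgfbi (1.30), Id4 (-2.40) and Bmp3 (0.63).

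The time course separated early from late changes. At day 3, Skil and Id3 were higher with 4-OHT, 2 of the 8 members tested, where 12.4% of all genes were called and 6.42% were called higher. Skil was at 23.6, 24.6 and 24.7 CPM with 4-OHT and 14.5, 14.6 and 14.8 CPM with EtOH. The groups lay far apart, with a log2 change of 0.73 (SE 0.08, adjusted p = 3.48e-08). Tgfbr2 was higher too, at 231, 242 and 233 against 173.1, 164 and 172 CPM, but under the fold cutoff (0.47, adjusted p = 1.93e-07; 34.4% of all genes passed the adjusted p).

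Within the BMP targets, day 3 was mixed. Id1 was at 4.83, 4.10 and 4.59 CPM with 4-OHT and 6.59, 6.43 and 7.02 CPM with EtOH, which do not overlap. Its log2 change of -0.57 (SE 0.16, adjusted p = 0.00481) was 1.48-fold, just under the cutoff, and without 4-OHT replicate 1 it was called at -0.62. Id3 went up, at 3.61, 3.05 and 3.20 CPM against 1.62, 2.02 and 2.77 CPM (0.62, SE 0.21, adjusted p = 0.0246). This call rests on low counts, between 30 and 74 per library, and was lost without EtOH replicate 1 (0.46), EtOH replicate 2 (0.59) or 4-OHT replicate 1 (0.55). Id2, Smad6, Smad7 and Bmpr1a were not called, with log2 changes between -0.36 and -0.02.

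At day 5, Id2 was the member called, with a background of 13.2%. It was at 13.2, 10.9 and 9.08 CPM with 4-OHT and 21.9, 16.2 and 16.2 CPM with EtOH, a log2 change of -0.71 (SE 0.13, adjusted p = 0.000114). The groups did not overlap. Without EtOH replicate 1, the highest library, the value was -0.57 and under the fold cutoff. Smad6 (-0.46), Bmpr1a (-0.30) and Tgfbr2 (-0.27) were lower at the adjusted p alone, as 38.3% of all genes passed it.

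At day 7, 0 of 8 members were called by edgeR and 0 by DESeq2, and the background was 18.3%. Without EtOH replicate 1, EtOH replicate 3 or 4-OHT replicate 2, Bambi was called as lower, at 3 to 4 counts with 4-OHT against 6 to 17 with EtOH. It then passed the count filter only through the EtOH libraries, where it was higher, so this call is not read as a change. Id2 (-0.36), Bmpr1a (-0.13) and Skil (0.22) passed the adjusted p alone, with 45.2% of all genes. At day 10, Smad6 was called, with a background of 15.8%. It was at 2.03, 2.74 and 2.37 CPM with 4-OHT and 2.91, 3.74 and 4.26 CPM with EtOH, a log2 change of -0.61 (SE 0.19, adjusted p = 0.01). Without EtOH replicate 3 or 4-OHT replicate 1 it was -0.48 and -0.51, and its adjusted p rose to 0.0725 and 0.0591. Smad7 moved up at the same day, at 11.5, 10.4 and 9.91 against 6.59, 7.03 and 8.57 CPM, again without overlap (0.52, SE 0.15, adjusted p = 0.00587). It was called without EtOH replicate 3, at 0.63. The inhibitory SMADs thus stood on opposite sides of their controls at day 10.

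Id2 (-0.52), Id3 (-0.46), Bmpr1a (-0.37) and Tgfbr2 (-0.35) were lower at day 10 at the adjusted p alone, which 44.3% of all genes passed, and Id1 (0.21) and Skil (0.05) did not pass it. Id2 and Id3 were called without EtOH replicate 1 (-0.60 and -0.63) or 4-OHT replicate 2 (-0.59 and -0.62). Over the days 3, 5, 7 and 10, Id2 gave -0.13, -0.71, -0.36 and -0.52.

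The response to 4-OHT differed between days 10 and 3 for 5 of the 8 members tested, with a background of 26.3%. The differences (day 10 minus day 3) were 0.78 for Id1 (SE 0.20, adjusted p = 0.00225) and 0.63 for Smad7 (0.21, adjusted p = 0.0145). They were -1.08 for Id3 (0.28, adjusted p = 0.00198), -0.68 for Skil (0.11, adjusted p = 1.49e-05) and -0.83 for Tgfbr2 (0.08, adjusted p = 2.49e-09). Targets of both branches are found on either side. Tgfbr2 crossed from above its control at day 3 to below it at day 10. Of 35 other genes of the pathway, 15 were called in this difference. The call of Smad7 was lost by the fold cutoff without EtOH day 10 replicate 1 (0.56) or 4-OHT day 10 replicate 1 (0.57).

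**Figure D4:**
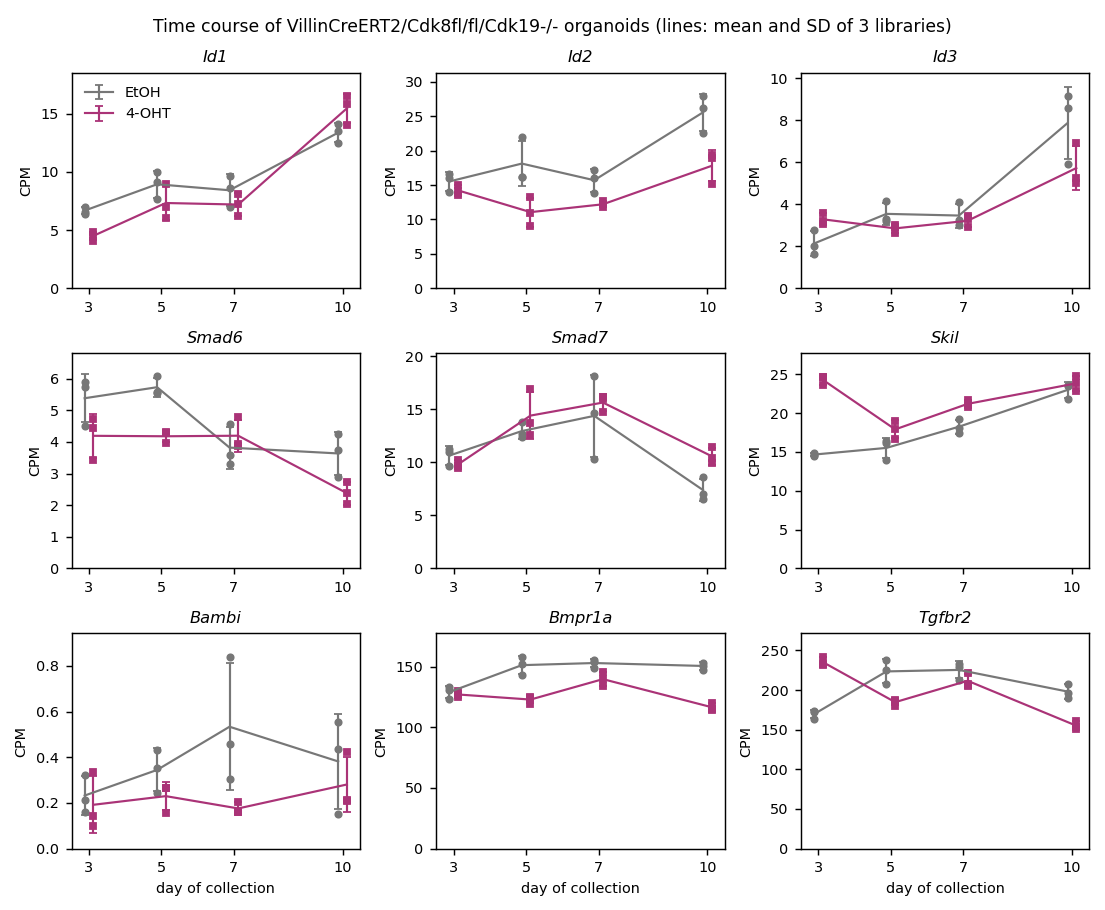
CPM of the 9 members at days 3, 5, 7 and 10 in VillinCreERT2/Cdk8fl/fl/Cdk19-/- organoids with EtOH (grey circles) or 4-OHT (purple squares), with lines through the means and bars for the SD of 3 libraries. Skil and Tgfbr2 stand above their controls at day 3, and with EtOH the means of Id1, Id2 and Id3 are higher at day 10 than at day 3.

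Members also differed between days of collection with EtOH. Column names of days 3 and 10 differ in format, so day cannot be told apart from a difference in handling. From day 3 to day 10 of EtOH alone, 4 of 8 members rose and 8 of 8 passed the adjusted p, where 38.4% of all genes were called, 16% rose and 67.2% passed the adjusted p. Id3 was at 1.62, 2.02 and 2.77 CPM at day 3 and 5.91, 9.15 and 8.57 CPM at day 10 (log2 difference of 1.88, SE 0.20, adjusted p = 1.88e-09). Id1 rose from 6.59, 6.43 and 7.02 to 12.5, 13.6 and 14.1 CPM (1.00, adjusted p = 3.39e-07). Id2 rose by 0.72 and Skil by 0.65. Smad6 (-0.57) and Smad7 (-0.53) were lower at the adjusted p alone, and both were called without EtOH day 3 replicate 2 (-0.69 and -0.60) or EtOH day 10 replicate 3 (-0.69 and -0.64). Between these days Smad7 did not move one way: its EtOH means were 10.6, 12.95, 14.4 and 7.40 CPM at days 3, 5, 7 and 10.

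With all libraries, Bambi did not pass the count filter of the fits of the time course and of Wnt3-CM, where it had 2 to 17 counts in each of the 30 libraries. The immune markers summed to 11.4 to 14.6 CPM with 4-OHT and 4.32 to 5.05 CPM with EtOH at day 3, and their part in the results of that day was not tested. Mesenchymal markers stayed under 2 CPM in these libraries except for EtOH replicate 2 of day 7 at 38.7 CPM, without which 0 members were called at that day.

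Of 35 other genes of the pathway, 9 were called at day 3 (5 higher, 4 lower), 6 at day 5, 7 at day 7 and 7 at day 10. The background at these days was 12.4%, 13.2%, 18.3% and 15.8%. At day 3 the TGF-beta targets Ccn2, a matricellular protein, and Pmepa1 were higher, Ccn2 at 3.70 ± 1.04 against 0.21 ± 0.06 CPM and Pmepa1 at 43.4 ± 2.94 against 19.0 ± 1.42 CPM (log2 change of 1.196). Cdkn2b, a cell cycle inhibitor induced by TGF-beta, was lower (-0.65), as was the activin receptor Acvr1b (-0.65). The ligand Bmp7 was lower at days 5, 7 and 10 (-0.72, -0.76 and -0.83), and Tgfb1 at days 5 and 10 (-0.70 and -0.95). Atoh8, a BMP target, was lower at days 5 and 7 (-0.70 and -0.85). At day 7 Bmp3, an atypical BMP, rose from 98.4 ± 10.8 to 203 ± 39.1 CPM and Tgfbi rose by 1.27 on the log2 scale. At day 10 Klf10 (-0.63) and Acvr2b (-0.69) were lower. Between days 3 and 10 of EtOH, Tgfbr1 rose by 1.05, and Tgif1 (-0.98), Acvr1b (-0.70) and Cdkn1a (-0.78) fell, among 14 called of 35 (background 38.4%).

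Among the genes with patterns most like Id1 over the 24 libraries of the time course were Galnt1, Atp5a1, Chchd3 and Aldh16a1, with Pearson's r between 0.952 and 0.965 over 11598 genes compared. Those most like Smad7 were Gata4, Vasp, Slc25a22, Zfand3 and Rab7, with r between 0.904 and 0.924. Among the members, r of Id1 was 0.74 with Id3 and 0.61 with Id2, and -0.50 with Smad6. The libraries share their line, treatments and days, so these values describe the pattern over time.

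In Wnt3-CM at day 10, Id3 and Tgfbr2 were lower with 4-OHT, 2 of 8 members, where 16.9% of all genes were called and 7.42% were lower. Tgfbr2 was at 233, 214 and 191 CPM with 4-OHT and 345, 335 and 318 CPM with EtOH, a log2 change of -0.64 (SE 0.07, adjusted p = 2.77e-07). Id3 was at 10.5, 10.3 and 9.39 CPM against 12.4, 17.4 and 17.9 CPM (-0.66, SE 0.13, adjusted p = 0.000271). Neither overlapped its control. The fold of Id3 fell under the cutoff without the EtOH library at 17.9 CPM (-0.57), and that of Tgfbr2 without the 4-OHT library at 191 CPM (-0.56).

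The ID genes split in Wnt3-CM. Id1 rose on the adjusted p alone, from 14.8, 13.6 and 13.9 to 20.8, 19.7 and 18.9 CPM (0.49, adjusted p = 0.000194), while Id2 was lower, at 8.41 ± 0.32 against 11.8 ± 1.09 CPM (-0.49, adjusted p = 0.00156). Skil (-0.20) passed the adjusted p alone, with 48.2% of all genes, and Smad6, Smad7 and Bmpr1a did not. The response in Wnt3-CM minus that in standard medium at day 10 was called for 1 of 8 members, Smad7, with a background of 13.3%. Its value was -0.71 (SE 0.18, adjusted p = 0.00489), from 0.52 in standard medium and -0.19 in Wnt3-CM. The media come from different count tables, so medium and count table cannot be told apart. The differences for Id1 (0.28, adjusted p = 0.116), Id2 (0.03, adjusted p = 0.903) and Id3 (-0.20, adjusted p = 0.559) did not pass the test. Both receptors passed the adjusted p, as 29.0% of all genes did, but not the fold cutoff, with differences of -0.29 for Tgfbr2 (adjusted p = 0.0297) and 0.25 for Bmpr1a (adjusted p = 0.0238). Of 34 other genes of the pathway, 8 were called in this difference.

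Of 33 other genes of the pathway tested in Wnt3-CM, 8 were called and all 8 were lower, where 16.9% of all genes were called and 7.42% were lower. Cdkn1a went from 714 ± 16.7 to 328 ± 43.2 CPM (-1.12), Cdkn2b from 411 ± 5.69 to 220 ± 12.7 CPM (-0.90) and Pmepa1 from 94.1 ± 5.54 to 46.9 ± 5.63 CPM (-1.00), all TGF-beta targets. The ligand Bmp8b fell by 2.12 on the log2 scale.

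With kinase-dead CDK19 at day 7, Smad6 was lower and Skil and Bambi were higher after loss of CDK8, 3 of 9 members with a background of 12.3%. Smad6 was at 1.42, 1.95 and 1.40 CPM with 4-OHT and 4.27, 4.21 and 4.56 CPM with EtOH. The groups lay apart, at a log2 change of -1.44 (SE 0.18, adjusted p = 0.000322) or 2.72-fold, the largest change of a member in the 10 knockout comparisons. Skil was at 34.0, 29.5 and 30.6 against 22.7, 19.5 and 18.4 CPM (0.64, SE 0.10, adjusted p = 0.00108). Bambi was at 3.18, 2.04 and 2.63 against 1.68, 1.03 and 1.29 CPM (0.97, SE 0.25, adjusted p = 0.015).

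The ID genes, Smad7 and both receptors did not pass the test in these organoids, with log2 changes between -0.22 and 0.15. The call of Skil was lost by the fold cutoff without the EtOH library at 18.4 CPM (0.55) or the 4-OHT library at 34.0 CPM (0.57). The call of Bambi was lost without the EtOH library at 1.03 CPM (0.80, adjusted p = 0.0739) or that at 1.29 CPM (0.93, adjusted p = 0.0632). Mesenchymal markers summed to no more than 5.35 CPM in them and immune markers to no more than 2.59 CPM. Their count columns name no genotype, and elimination against the other lines placed them.

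The response with kinase-dead CDK19 minus that without CDK19 at day 7 was called for Smad6, with a background of 11.1%. It was -1.58 for Smad6 (SE 0.27, adjusted p = 0.000847), which was 4.20 ± 0.51 CPM with 4-OHT and 3.82 ± 0.66 with EtOH in organoids without CDK19. For Bambi it came to 2.55, a description with no test: Bambi entered this fit only through the D173A libraries, at 31 to 92 counts, and had 3 to 17 counts in organoids without CDK19. The difference of Skil (0.42, adjusted p = 0.0383, which 20.1% of all genes passed) was under the fold cutoff. Of 36 other genes of the pathway, 4 were called. Both lines were grown and counted apart, so line and allele cannot be told apart.

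**Figure D5:**
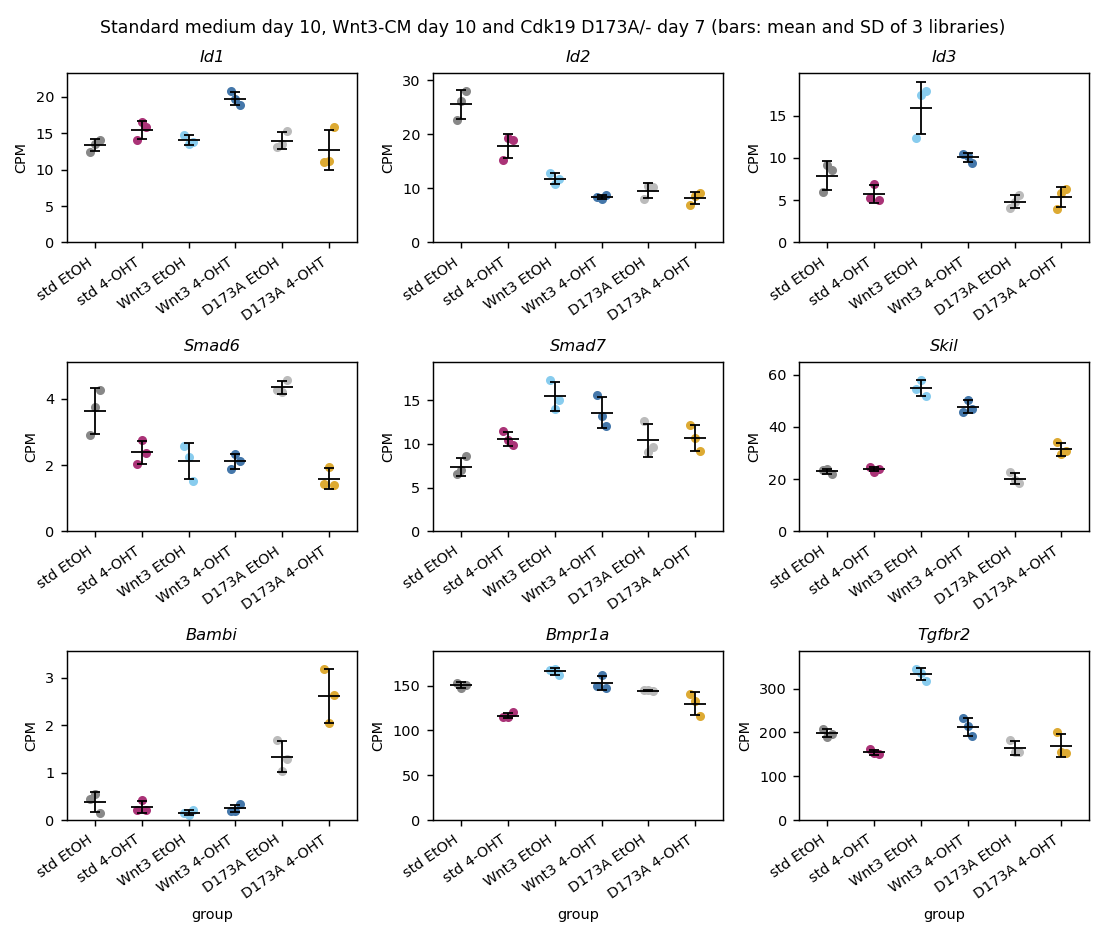
CPM of the 9 members with EtOH and 4-OHT in standard medium at day 10, in Wnt3-CM at day 10 and in CDK8iIEC-KO/Cdk19 D173A/- organoids at day 7, with each library as a point and bars for the mean and SD of 3 libraries. The 3 pairs were scaled separately, so levels compare within a pair. Smad6 falls and Skil and Bambi rise in the D173A pair, and Tgfbr2 and Id3 fall in Wnt3-CM.

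Of 35 other genes of the pathway, 4 were called with kinase-dead CDK19, with a background of 12.3%. One of these, Id4, the fourth ID gene, had 1 to 3 counts per library with EtOH and 130 to 237 with 4-OHT, at 6.26 ± 1.67 CPM. Id4 passed the count filter only through the 4-OHT libraries, so its counts are given as a description and its call is not read as a change. Bmp7 (-0.96), Tgfb1 (-1.22) and Acvr2b (-0.60) were lower.

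In IECs of CDK8iIEC-KO/Cdk19-/- mice, 0 of 9 members were called by edgeR against VillinCreERT2 IECs, with a background of 1.5%. DESeq2 called 2 members among 859 genes, against 228 genes with edgeR. Id1 was at 128, 116 and 102 CPM in CDK8iIEC-KO/Cdk19-/- IECs and 79.8, 82.2 and 82.7 CPM in VillinCreERT2 IECs (log2 change of 0.50, SE 0.10, adjusted p = 0.0735). Id2 was at 50.4, 45.7 and 39.5 against 25.2, 35.6 and 27.2 CPM (0.62, SE 0.16, adjusted p = 0.114). Id3 was at 99.8, 93.2 and 85.1 against 74.3, 80.8 and 71.2 CPM (0.30, SE 0.10, adjusted p = 0.176). All 3 ID genes and Tgfbr2 lay above the controls without overlap, as 26.8% of all genes did in either direction.

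Tgfbr2 was at 61.5, 72.5 and 43.0 against 25.6, 41.9 and 24.6 CPM (0.94, SE 0.27, adjusted p = 0.147). Smad6 (0.05), Smad7 (-0.03), Skil (-0.18), Bambi (-0.45) and Bmpr1a (-0.15) overlapped. DESeq2 called Id2 (0.62, adjusted p = 0.013) and Tgfbr2 (0.94, adjusted p = 0.0106), and edgeR called the same members without VillinCreERT2 replicate 2, at 0.80 and 1.24, where it called 1566 genes in all.

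Markers of other cells moved with these groups. The immune markers summed to 825, 501 and 541 CPM in CDK8iIEC-KO/Cdk19-/- IECs and 40.5, 227 and 45.8 CPM in VillinCreERT2 IECs, and the endothelial markers to 6.97 to 12.96 and 1.59 to 4.08 CPM. The mesenchymal markers summed to 802, 522 and 393 CPM in the former and 5.93, 790 and 40.2 CPM in the latter, so that VillinCreERT2 replicate 2 stood with the knockout. Among the ID genes and Tgfbr2, Id2, Id3 and Tgfbr2 were the highest of the 3 controls in that library, at 35.6, 80.8 and 41.9 CPM. Id1, at 82.2 CPM, was not. The part of these cells in the results was not tested. Of 44 other genes of the pathway, 2 were called, with a background of 1.5%: Bmp3 lower (-1.12, at 12.1 ± 1.24 against 26.2 ± 4.67 CPM) and Bmp8b higher (1.54, at 7.01 ± 1.42 against 2.41 ± 0.65 CPM).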

How the data were processed

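RNA-Seq counts of 57 libraries from 4 tables were used, with 3 libraries in each of 19 groups. The authors deposited raw counts of reads per gene, without normalization. The submitters' processing notes name STAR 2.5.2, featureCounts, Subread 1.6.3 and mm10, without roles, and strandedness and the gene annotation are not given in the sources used here. Of the 54752 gene identifiers, 53861 occur in GENCODE vM21, which gave positions and exonic lengths. Wnt3-CM columns were mapped by name and Cdk19 D173A/- columns by elimination, and 6 IEC columns that carry a letter the labels do not explain were not used, so 17 of 18 planned comparisons were run.

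Counts were fitted with edgeR 4.0.16 in R 4.3.3 (filterByExpr, TMM, robust quasi-likelihood). One model covered the 5 day 7 organoid groups and another the 8 groups with EtOH or 4-OHT over time, and each other comparison had its own model. Calls needed an adjusted p under 0.05 and a fold over 1.5. Each SE came from the log2 change and its F statistic (change over square root of F). Interactions were contrasts within a fit. Scripts were tested on simulated data. No libraries agreed within sampling noise (chi-square per gene between 2.55 and 81.3 for replicate pairs).

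Alternatives were DESeq2 1.42.0, RLE normalization, no filter on low counts, a block on replicate numbers, fits of the compared groups alone, the mean of both control lines, and each library left out. The members and lists were chosen with earlier results of these data known. Named pathway genes were those called that averaged at least 50 counts in either group, at most 4 per comparison by smallest adjusted p. The genes most like Id1 and Smad7 were the 5 with the highest Pearson's r of log2 CPM (prior count 2). Some genes that these rules select are not reported here.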

Additional observations from a re-analysis of the deposited data

Results flagged for a closer look

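These results are differences between the responses of 2 groups with an adjusted p under 0.05 and a fold over 1.5 for the difference itself. Between days 10 and 3 of 4-OHT against EtOH, edgeR gave differences in log2 fold change of 0.78 for Id1, -1.08 for Id3, 0.63 for Smad7, -0.68 for Skil and -0.83 for Tgfbr2. Between Wnt3-CM and standard medium at day 10 the difference was -0.71 for Smad7. Between kinase-dead and absent CDK19 at day 7 it was -1.58 for Smad6. It came to 2.55 for Bambi, which entered that fit only through the D173A libraries (31 to 92 counts, against 3 to 17 without CDK19) and is no support for a difference. Between the combined knockout and the sum of the single knockouts it was -0.80 for Id2, -0.64 for Skil and 0.77 for Bambi. Groups of 3 libraries were too small for a test of single outlying libraries.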

How the results depend on the processing

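Between CDK8iIEC-KO/Cdk19-/- and VillinCreERT2 IECs, edgeR called 228 genes, against 1103 with no filter on low counts, 859 with DESeq2, 8 with the replicate block and 3 to 1566 with 1 library left out (1566 without VillinCreERT2 replicate 2 and 3 without replicate 3), and 2 members were called with DESeq2. Against the mean of both control lines, 2 members were called in CDK8iIEC-KO, 1 in Cdk8fl/fl/Cdk19-/- and 1 in CDK8iIEC-KO/Cdk19-/- organoids. With 1 library left out, the members called ranged from 0 to 1 in CDK8iIEC-KO, from 0 to 2 in CDK8iIEC-KO/Cdk19-/- and from 1 to 4 in the difference from the sum in organoids, and from 0 to 2 in IECs. They ranged from 1 to 2 at day 3, 0 to 1 at day 5, 0 to 1 at day 7 (Bambi, through the count filter alone), 0 to 3 at day 10, 1 to 2 in Wnt3-CM and 1 to 3 with D173A. The causes were not tested.

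Replicate numbers as used did not pair the libraries of the organoid lines, the time course and the IECs. The lowest correlation of deviations between libraries with the same number was -0.07, -0.14 and -0.41 there. Organoid lines and time course were numbered by sample title, which differs from the column name in some libraries, and pairing by column name was not tested. In Wnt3-CM and in D173A organoids, numbered by column name, the lowest was 0.095 in both, with medians of 0.133 and 0.185. Libraries with different numbers had medians of -0.106 and -0.178, so pairing in these was left unsettled. In all 17 comparisons the replicate block changed no call of a member. It moved the count of called genes by over 1.5 times only in IECs. RLE normalization and fits of only the groups compared changed no member call, and no called value changed sign under any alternative run. The planned comparison of D173A IECs was not run, since the labels do not explain its columns. Low counts limit Bambi, Smad6 and, at day 3, Id3, and 3 libraries per group limit every comparison.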
